A study of Homo sapiens with 4 samples.

Results

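NFKBIA and TNFAIP3 are the genes of IkBa and A20, the classical feedback inhibitors of NF-kB. They were taken by gene symbol from the platform's probe annotation, which lists 5 probes for NFKBIA and 6 for TNFAIP3. They are 2 of 4604 genes on the arrays and 2 of 3589 genes with a value on all 4 arrays, and all 11 of their probes had every value. The cells were OCI-Ly3, a human line derived from an activated B-cell-like lymphoma, in which doxycycline (20 ng/ml) induces a short hairpin RNA against IKKa, and each 2-colour array compared RNA of doxycycline-treated cells with RNA of cells that had no doxycycline. In one pair of arrays neither colour had inhibitor and doxycycline was given for 2 or 3 days. In the other pair MLN120b, which inhibits IKKb, was present in both colours at 12.5 uM, either for 3 h following 2 days of doxycycline or for the last 24 h of 3 days. Each array therefore shows the effect of the hairpin at one inhibitor status, and the effect of the inhibitor by itself was not measured. Doxycycline and the hairpin always came together, so their effects cannot be told apart.

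IkBa binds NF-kB dimers and holds them in the cytoplasm. The IkB kinase complex, made of the kinases IKKa and IKKb and the scaffold NEMO, phosphorylates IkBa, which is then degraded so that NF-kB enters the nucleus. NF-kB in turn induces NFKBIA, whose product captures it again, and TNFAIP3, whose product edits ubiquitin chains on signalling proteins upstream of the kinase. Both messages are short-lived and are widely read as gauges of classical NF-kB activity. In lymphomas of the activated B-cell type the pathway is constantly active, and TNFAIP3 is often lost there by mutation. The title of the series names its question, whether IKKa compensates for IKKb in the classical pathway when IKKb is blocked.

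The promoters of both genes are shown because a known route of their control is through kB sites close to the start. Each line gives the 250 bases before the RefSeq transcription start, read 5′ to 3′ on the strand of the gene (GRCh38.p14), with matches to the kB consensus decamer in capitals. NFKBIA lies on the minus strand (chr14:35404750-35404999) and TNFAIP3 on the plus strand (chr6:137867009-137867258).
NFKBIA: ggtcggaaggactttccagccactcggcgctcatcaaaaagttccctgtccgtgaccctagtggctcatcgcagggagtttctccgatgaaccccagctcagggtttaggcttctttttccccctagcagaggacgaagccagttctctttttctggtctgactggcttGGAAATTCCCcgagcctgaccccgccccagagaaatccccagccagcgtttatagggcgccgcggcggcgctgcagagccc
TNFAIP3: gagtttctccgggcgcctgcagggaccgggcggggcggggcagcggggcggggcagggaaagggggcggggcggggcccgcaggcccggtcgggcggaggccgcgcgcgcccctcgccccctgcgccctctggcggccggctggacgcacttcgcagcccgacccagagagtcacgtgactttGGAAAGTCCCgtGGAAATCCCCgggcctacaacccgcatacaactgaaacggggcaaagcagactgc
The consensus is 3 G, a purine, any 2 bases, 2 pyrimidines and 2 C, and it was searched on both strands. NFKBIA held 1 match, from base -81 to -72 counted from the start. TNFAIP3 held 2 matches, from -67 to -58 and from -55 to -46. All 3 read as the consensus on the strand opposite to the gene. Of 27305 human promoters of the same length 9.57% held a match and 1.61% held 2 or more. A narrower form within the consensus (3 G, A, any base, 3 T and 2 C) occurred once in each of the 2 promoters. It occurred in 0.55% of all promoters and in 0.92% of those of measured genes. These matches describe the letters only, since binding was not measured.

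**Figure D1:**
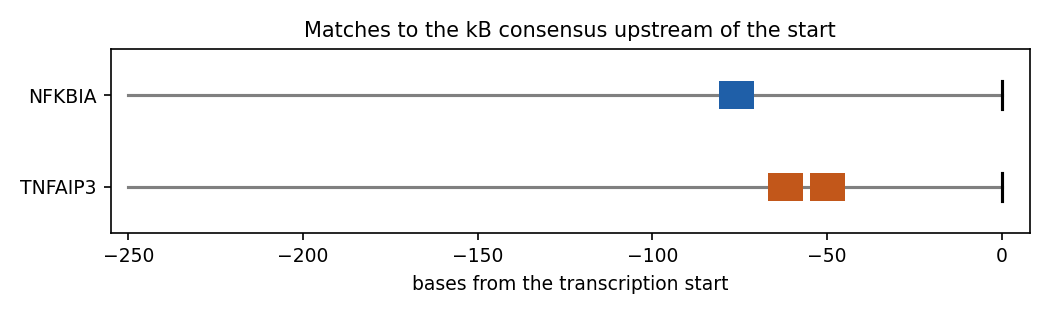
Positions of kB consensus matches (coloured boxes) in the 250 bases before the transcription start of NFKBIA and TNFAIP3, with the start at 0 on the axis. NFKBIA had 1 match and TNFAIP3 had 2, all between bases -81 and -46.

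All values of expression are log2 ratios of doxycycline-treated over cells without doxycycline, 1 per probe and array, as deposited by the authors. This direction is the likely one, since the treated cells carried Cy5 and such ratios are usually Cy5 over Cy3, but the file does not state it. Turned the other way, every lower value here would be a higher one. Base 2 is likewise assumed, and every fold below rests on it. CHUK, the gene of IKKa, had log2 ratios of -0.59 and -0.87 at 2 and 3 days without inhibitor and of -1.30 and -1.01 with it. Because CHUK helped to settle the likely direction, it does not check the hairpin independently. The arrays held values for 11722 to 14375 of 15246 probes, with medians of -0.007 to 0. A ratio has no absolute level, so the B-cell identity of the line could not be checked from markers. Of 8 B-cell marker genes 7 were measured, and none passed in any comparison. Of all 3589 genes 164 passed with inhibitor and none in the other comparisons. In RNA of a whole culture, fewer cells that express a gene and less RNA per cell cannot be told apart.

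NFKBIA had ratios below 0 on all 4 arrays, and they lay further below 0 where IKKb was inhibited. Of its comparisons only the mean with inhibitor passed the test over all genes, as given below. The mean of the 5 NFKBIA probes was -0.19 at 2 days and -0.40 at 3 days without inhibitor. It was -0.78 at 2 days with 3 h and -0.88 at 3 days with 24 h of inhibitor. The inhibitor arrays lay below both other arrays, as they did for 11.2% of all genes. Averaged over the 2 arrays of a group, the ratio was -0.29 ± 0.15 (SD, n = 2) without inhibitor, 1.23-fold lower, and -0.83 ± 0.07 (SD, n = 2) with inhibitor, 1.78-fold lower. All 20 probe values were below 0. They ran from -0.52 to -0.02 on the 2-day array, from -0.71 to -0.20 on the 3-day array, from -1.06 to -0.54 with 3 h and from -1.19 to -0.59 with 24 h of inhibitor. The probes kept much of their order: probe 5 (34886_1 in the annotation) was the lowest on every array and probe 2 (24499_1) the second lowest.

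TNFAIP3 showed the same order of groups with a wider spread. The mean of its 6 probes was -0.22 at 2 days and -0.44 at 3 days without inhibitor, -0.63 with 3 h and -1.13 with 24 h of inhibitor. Again both inhibitor arrays lay below both arrays without it, the order that 11.2% of all genes had, but the inhibitor arrays stood further apart than for NFKBIA. The group means were -0.33 ± 0.16 (SD, n = 2) without inhibitor, 1.26-fold lower, and -0.88 ± 0.35 (SD, n = 2) with it, 1.84-fold lower. Of 24 probe values 23 were below 0, and the exception was probe 1 (16398_1) at 0.05 on the 2-day array. With 24 h of inhibitor the probes ran from -1.60 to -0.82, and this array held the lowest value of all 6. Probe 6 (35299_1) was unlike the others. It had -0.73 and -0.75 at 2 and 3 days without inhibitor, -0.55 with 3 h and -1.60 with 24 h, so it was higher with 3 h of inhibitor than without. Probe positions within the transcripts were not used here.

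**Figure D2:**
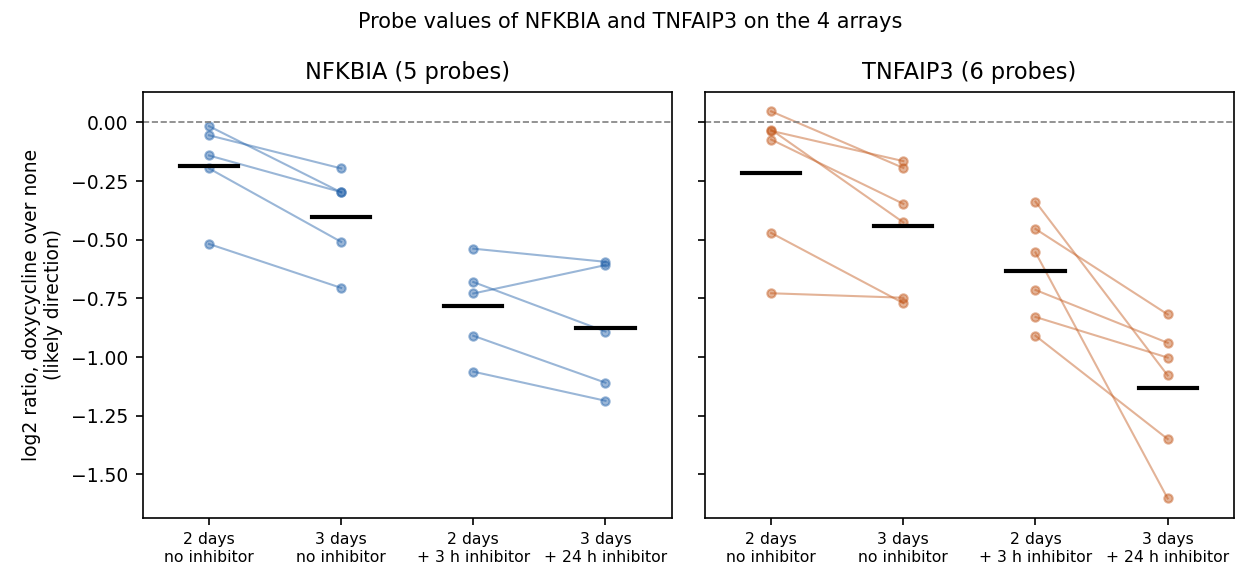
Log2 ratio of doxycycline-treated over cells without doxycycline (vertical axis) on the 4 arrays (horizontal axis) for the 5 NFKBIA and 6 TNFAIP3 probes; each point is a probe, thin lines join its values within a group and black bars are means over probes. The NFKBIA means step from -0.19 and -0.40 to -0.78 and -0.88, and the TNFAIP3 means from -0.22 and -0.44 to -0.63 and -1.13.

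Without inhibitor neither gene passed the test. limma was fitted to all 3589 genes, with 1 mean for each group of 2 arrays, and p-values were adjusted by the Benjamini-Hochberg method. The adjusted p was 0.421 for NFKBIA (95% interval -0.57 to -0.02) and 0.473 for TNFAIP3 (-0.68 to 0.03). No gene at all was called at an adjusted p under 0.05 (0%, smallest 0.0693), although 400 had an unadjusted p under 0.05. Single probes, fitted over all 9788 complete probes, gave 0 of 11 calls against 0.245% of all probes called lower. NFKBIA ranked 423rd and TNFAIP3 339th from the lowest of 3589 genes.

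With IKKb inhibited in both colours, both genes were called lower in doxycycline-treated cells than in cells without doxycycline. Treated cells carried Cy5 on every array, so in a mean set against 0 a dye bias and the treatment cannot be told apart. NFKBIA had a mean of -0.83 (SE 0.12, 95% interval -1.11 to -0.55, limma adjusted p = 0.0229) and TNFAIP3 of -0.88 (SE 0.15, -1.24 to -0.53, adjusted p = 0.0304), while 3.04% of all genes were called lower. They ranked 65th and 57th from the lowest of 3589 genes. The SE pools the spread of both groups and is not that of the inhibitor arrays alone. The SD was 0.15 without and 0.07 with inhibitor for NFKBIA, and 0.16 and 0.35 for TNFAIP3. Probe by probe, all 5 of NFKBIA and all 6 of TNFAIP3 were called, with limma adjusted p from 0.00253 to 0.0346 and from 0.00482 to 0.0384, against 6.27% of all probes. Beyond 1.5-fold lower on both inhibitor arrays were 4 of 5 NFKBIA and 3 of 6 TNFAIP3 probes, against 3.03% of all. Probes of 1 gene share the same RNA and are not replicates. Of the 11 probes 10 were below 0 on all 4 arrays, against 24.5% of all probes.

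These calls rest on few arrays. Without either array of doxycycline alone the limma adjusted p rose to 0.053 for NFKBIA and 0.0635 for TNFAIP3, and neither was called, with 1 residual degree of freedom left in that fit. Over the alternatives that kept every array, the limma adjusted p ran from 0.0082 to 0.0257 for NFKBIA and from 0.00825 to 0.0333 for TNFAIP3. A fit with 1 inhibitor array left takes its spread from the arrays without inhibitor. Its calls therefore say nothing about replication with inhibitor. Without the 24 h array 7 of the 11 probes were called. The 2 arrays of a group are different times, so the spread includes any change with time, and nothing in the labels says that the arrays came from separate cultures.

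The ratios lay further below 0 with than without inhibitor in these data, but the difference did not pass over all genes. It was -0.54 (SE 0.17, 95% interval -0.93 to -0.15) for NFKBIA and -0.55 (SE 0.21, -1.06 to -0.05) for TNFAIP3, a factor of 1.45 and 1.47. The unadjusted p was 0.0142 and 0.0349, and the limma adjusted p 0.989 for both, with 0% of genes and 0% of probes called lower. The arrays themselves spread more with inhibitor, with a median absolute deviation over complete probes of 0.185 and 0.266 against 0.127 and 0.195. With this spread made equal, the differences were -0.375 and -0.344. TNFAIP3 depended on the inhibitor array taken. Set against the mean of both arrays without inhibitor, its difference was -0.31 without the 24 h array and -0.80 without the 3 h array. Set against the array of the same doxycycline day it was -0.42 with 3 h and -0.69 with 24 h of inhibitor. With 1 inhibitor array left, the fit assumes that it varies like the 2 arrays without inhibitor, which says nothing about replication with inhibitor. Among 3589 genes TNFAIP3 had the 34th and NFKBIA the 35th lowest difference.

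Set against the array of the same doxycycline day, NFKBIA differed by -0.60 with 3 h and by -0.48 with 24 h of inhibitor. TNFAIP3 differed by -0.42 with 3 h and by -0.69 with 24 h. By the mean over probes NFKBIA thus had the larger difference at 3 h and TNFAIP3 at 24 h, each from 1 pair of arrays and with no test. Medians over probes had the same order, -0.54 and -0.48 for NFKBIA and -0.43 and -0.62 for TNFAIP3. TNFAIP3 probes 2 (-0.80 and -0.58) and 4 (-0.64 and -0.59) and NFKBIA probe 1 (-0.54 and -0.59) had the opposite order. The other probes followed their gene, and TNFAIP3 probe 6 stood apart at 3 h, at 0.17. Over all genes the differences from the 5th to the 95th percentile ran from -0.41 to 0.42 on day 2 and from -0.39 to 0.56 on day 3. Only 8 other genes were at or below NFKBIA on both days and 14 at or below TNFAIP3. CXCL13, USP25 and WSB1, named after their values were seen, were in both counts.

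Single probes showed the same difference. Of 22 day-matched probe differences 21 were below 0, the exception being TNFAIP3 probe 6 on day 2 at 0.17. Of all genes 50.2% were below 0 on day 2 and 41.3% on day 3. The 22 values come from 2 genes on 2 pairs of arrays and are not replicates. Of 11 probes 10 were lower with inhibitor on both days, against 25.9% of all probes, and 10 had both inhibitor arrays below both others, against 12.9%. NFKBIA probe differences ran from -0.71 to -0.52 on day 2 and from -0.60 to -0.30 on day 3. Those of TNFAIP3 ran from -0.80 to 0.17 on day 2 and from -0.88 to -0.58 on day 3.

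**Figure D3:**
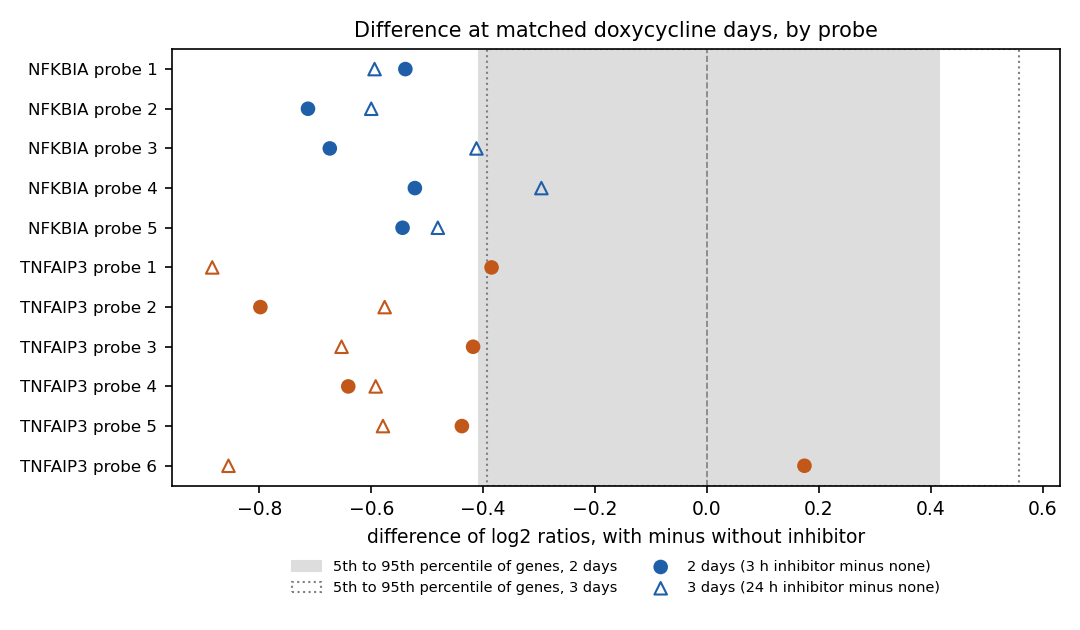
Difference of log2 ratios with minus without inhibitor at the same doxycycline day (horizontal axis) for each probe of NFKBIA (blue) and TNFAIP3 (orange); filled circles are 2 days, open triangles 3 days, the grey band and the dotted lines mark the 5th to 95th percentile of all genes on day 2 and day 3. Of the 22 points 21 lie below 0, and TNFAIP3 probe 6 on day 2 lies at 0.17.

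The probes of NFKBIA and those of TNFAIP3 differed more in level than in this difference. The SD over the 5 NFKBIA probes was 0.20 for the mean without and 0.23 for the mean with inhibitor, but 0.09 for the difference. For TNFAIP3 it was 0.28 and 0.20, and 0.12 for the difference. A constant offset of a probe, such as a dye bias, drops out of the difference, but its part in these SDs was not tested. The medians over the 165 genes with 5 or more complete probes were 0.16, 0.23 and 0.16. In the order of mean difference among those 165 genes, the chemokine gene CXCL10 was lowest (-0.60, 7 probes), followed by TNFAIP3, NFKBIA and the anti-apoptotic gene BCL2A1 (-0.37, 5 probes), and then by SYK (-0.245, 8 probes) and CENPE (-0.22, 5 probes). Every probe of NFKBIA and of TNFAIP3 had a lower mean with inhibitor, as in 14 (8.5%) of the 165 genes. The 4 other genes are named after their values were seen.

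Housekeeping genes were listed as a reference for these levels. The 10 measured had a median of -0.355 without and -0.347 with inhibitor, none called, where all genes had -0.03 and -0.01. Without inhibitor NFKBIA and TNFAIP3 were therefore no lower than the median housekeeping gene. By the mean with inhibitor both were below the lowest of them, ACTB, the gene of beta-actin, at -0.72 (limma adjusted p = 0.0756). On the 24 h array alone NFKBIA, at -0.88, was above ACTB. ACTB had log2 ratios of -0.37 and -1.04 at 2 and 3 days without inhibitor and of -0.45 and -0.99 with it. The median difference of the housekeeping list was -0.02, and the lowest was -0.17 for TFRC, the transferrin receptor. The part of a shift common to these genes in the levels of NFKBIA and TNFAIP3 was not tested.

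**Figure D4:**
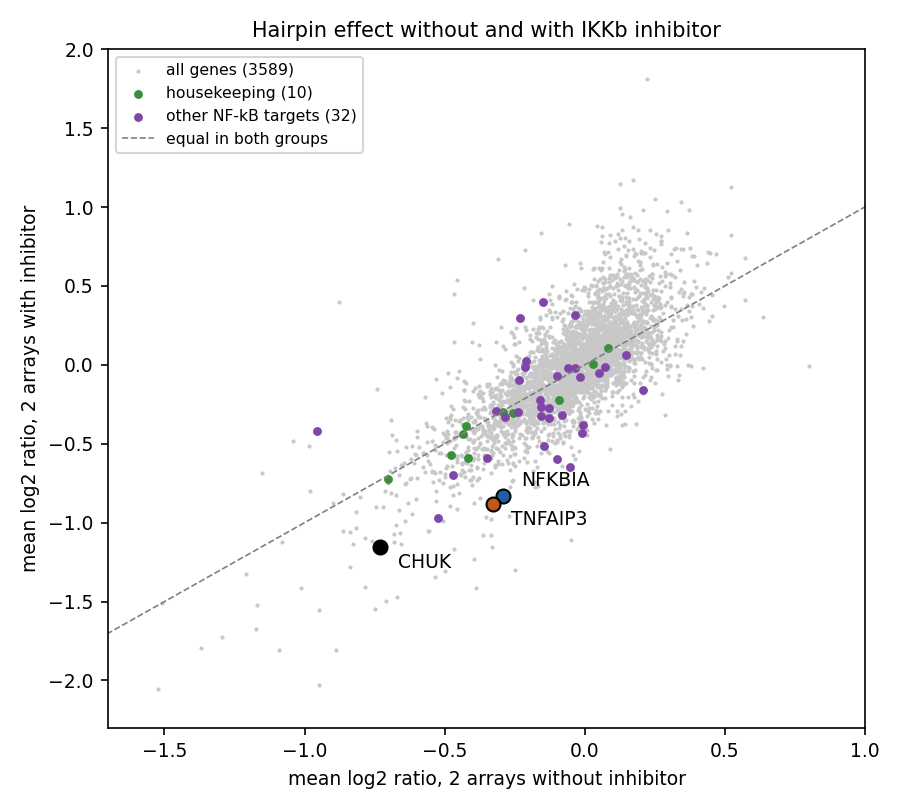
Mean log2 ratio of the 2 arrays with inhibitor (vertical axis) against that of the 2 arrays without (horizontal axis) for 3589 genes (grey), 10 housekeeping genes (green) and 32 other NF-kB targets (purple), with CHUK, NFKBIA and TNFAIP3 marked. NFKBIA and TNFAIP3 lie below the dashed line of equal values, at -0.83 and -0.88 with inhibitor against -0.29 and -0.33 without.

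In the IkB family, of 8 genes listed 7 were measured, and 2 were called lower on the inhibitor arrays, where 3.04% of all genes were. They were NFKBIA itself and NFKB1, whose precursor protein p105 is itself an inhibitor with IkB-like repeats (-0.73 ± 0.12, SD, n = 2, limma adjusted p = 0.0277). NFKB1 had -0.30 and -0.52 without and -0.65 and -0.82 with inhibitor, from 2 probes of which 1 was below 0 on all arrays. With probes that had a value on at least 1 array of each group its adjusted p was 0.0562. NFKBIE, the gene of IkBe and also a feedback gene, had a mean of -0.24 with inhibitor (adjusted p = 0.253). The family's median was -0.19 with inhibitor, against -0.01 for all genes, and its median difference was -0.03.

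Among the partners of A20 and other ubiquitin editing factors, 7 of 17 listed genes were measured. Of these, 2 were called lower on the inhibitor arrays, against 3.04% of all genes. They were TNFAIP3 itself and CYLD, a deubiquitinase that also restrains NF-kB signalling. CYLD, on 1 probe, had -0.18 and -0.20 without and -0.68 and -0.67 with inhibitor (adjusted p = 0.0257), a difference of -0.49 that did not pass. OTULIN, which removes linear ubiquitin chains, stood at -0.09 with 3 h and 0.83 with 24 h. The list's median was -0.16 with inhibitor. The binding partners TNIP1 and TNIP2 were not analysed here, as the former had no listed probe and the latter lacked values.

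Upstream of IkBa, 3 of 13 measured genes of IKK activation were called lower on the inhibitor arrays (3.04% of all genes were). None was called higher. They were CHUK (-1.15 ± 0.20, SD, n = 2, limma adjusted p = 0.013), TAB2, an adaptor of the kinase TAK1 (-1.13 ± 0.07, adjusted p = 0.00977), and TNFRSF13C, the BAFF receptor (-0.83 ± 0.13, adjusted p = 0.0209). TAB2 and TNFRSF13C rested on 1 probe each. The list's median was -0.11, and 5 of the 13 had means above 0, the highest being BCL10 at 0.53 and IKBKG, the gene of NEMO, at 0.42, both uncalled and named after their values were seen. IKBKB, the gene of IKKb, had no listed probe. CHUK differed between the groups by -0.71 on day 2 and by -0.135 on day 3, while NFKBIA differed by -0.60 and -0.48 and TNFAIP3 by -0.42 and -0.69. By the mean over probes CHUK and NFKBIA thus had the larger difference on day 2 and TNFAIP3 on day 3. Each difference came from 1 pair of arrays with no test, and not every probe of NFKBIA and TNFAIP3 followed this order.

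Of the 5 NF-kB subunit genes NFKB1 and REL, the gene of c-Rel, were called lower on the inhibitor arrays, beside 3.04% of all genes. REL had a mean of -0.62 ± 0.12 (SD, n = 2, limma adjusted p = 0.0385). REL was not called with equal spread (adjusted p = 0.0565), nor with probes that had a value on at least 1 array of each group, where it was -0.38 (0.123), nor without the 24 h array (0.109). RELA stood at -0.19 with inhibitor. The median of the subunits was -0.19 with inhibitor.

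Of 32 other NF-kB targets measured, 28 had means below 0 without inhibitor (55.9% of all genes did) and 27 with it (51.6%). On the inhibitor arrays 2 were called lower, against 3.04% of all genes. These were CCR7, a homing receptor (-0.97 ± 0.35, SD, n = 2, 1 probe, limma adjusted p = 0.0354), and IRF4, a transcription factor on which such lymphoma lines depend (-0.70 ± 0.23, adjusted p = 0.0443). IRF4 was not called with probes on at least 1 array of each group (0.0508) or without the 24 h array, where it was -0.53 (0.105). CXCL10 had -0.65 (adjusted p = 0.0634). The list's median was -0.27 with inhibitor and -0.14 without, and its median difference was -0.08, with 21 of 32 below 0 where 45.4% of all genes were. Of these targets CXCL10, at -0.60, had a lower difference than NFKBIA and TNFAIP3, while RGS1 (0.55), CCL22 (0.53) and STAT5A (0.53), named after their values were seen, differed about as far in the opposite direction. CCR7 was not called with equal spread (adjusted p = 0.0747). Like the members, the called list genes NFKB1, CYLD, TNFRSF13C, REL, CCR7 and IRF4 were not called once either array with no inhibitor was left out (limma adjusted p from 0.0577 to 0.0795), while CHUK and TAB2 kept theirs.

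Immediate early genes were listed because their messages are short-lived too. Of 13 measured none was called, where with inhibitor 164 of all 3589 genes were. With inhibitor 8 had means above 0 and 5 below, where 51.6% of all genes were below. The median of the 13 was 0.10. Their median difference was 0.11, where NFKBIA and TNFAIP3 had -0.54 and -0.55. SGK1 was lowest, at -0.43 with inhibitor (limma adjusted p = 0.142), and FOSB highest, at 0.48 (adjusted p = 0.162), with 0.08 at 3 h and 0.88 at 24 h of inhibitor. JUN, a subunit of AP-1, stood at 0.32 (adjusted p = 0.157).

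**Figure D5:**
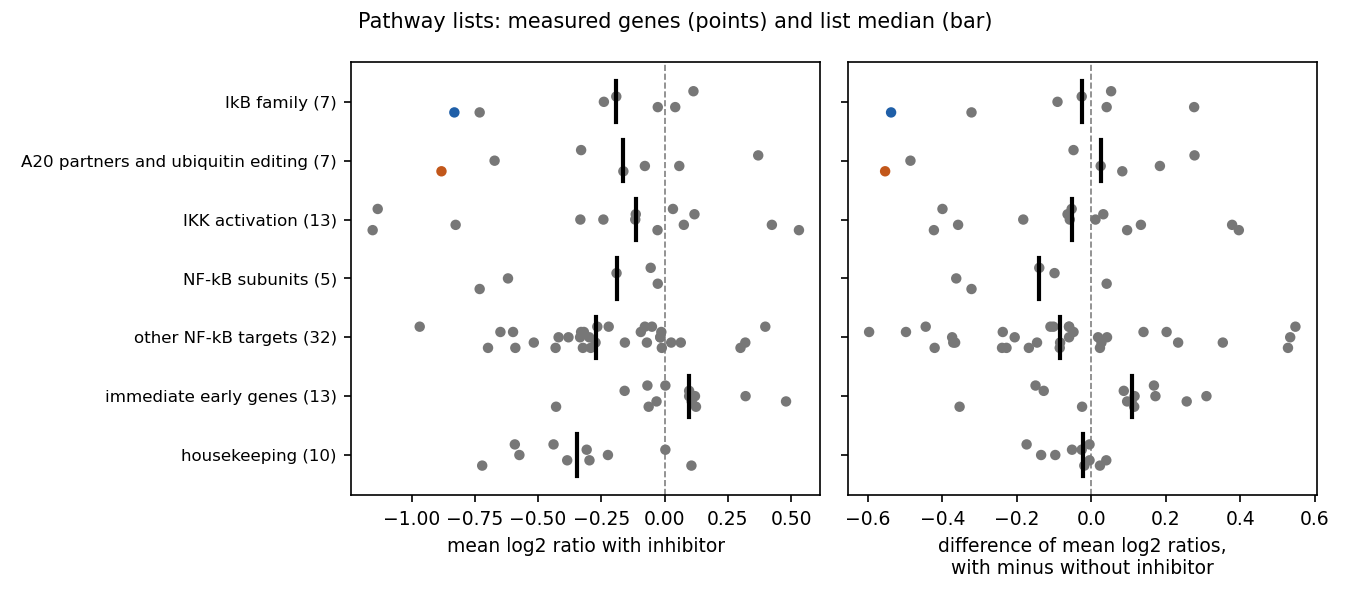
Mean log2 ratio with inhibitor (left) and difference with minus without inhibitor (right) for the measured genes of 7 lists (points; number of genes in brackets), with list medians as black bars, NFKBIA in blue and TNFAIP3 in orange. NFKBIA and TNFAIP3 are the lowest genes of their own lists in both panels, while the medians of those lists are -0.19 and -0.16 on the left and -0.03 and 0.03 on the right.

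The genes most like each member were found by Euclidean distance over the 4 mean log2 ratios, among genes measured on all arrays. Nearest to NFKBIA were CDC20B (distance 0.19), NFKB1 (0.22), SMC5, of a DNA repair complex (0.23), CUTALP (0.24) and PDCL (0.26). Nearest to TNFAIP3 were MARCHF6, a ubiquitin ligase of the endoplasmic reticulum (0.14), STARD4, a cholesterol carrier (0.21), PDCL (0.225), SNTB2 (0.27) and NFKBIA (0.30). TNFAIP3 was number 10 in the order for NFKBIA. All of these genes passed with inhibitor, where 3.04% of all genes were called lower, and most rested on 1 probe. The nearest genes were picked for ratios close to those of the called members, so their calls are no separate result. Apart from PDCL they were not called once either array with no inhibitor was left out (limma adjusted p from 0.053 to 0.0795). CDC20B (-0.40, 0.117) and SNTB2 (-0.50, 0.0594) were also not called with probes on at least 1 array of each group, nor STARD4 with probe medians (0.0667), nor STARD4 (-0.505, 0.136) and SNTB2 (-0.53, 0.112) without the 24 h array. By Pearson correlation over the 4 arrays, among 422 genes beyond 0.5 in size with inhibitor, TAB2 came first for NFKBIA (0.991) and IMPDH2 for TNFAIP3 (1.0), and MARCHF6 was again among the first 5 for TNFAIP3. With 4 points from 1 cell line these are descriptions only.

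Both genes had lower ratios at the later time of each group. Without inhibitor all 11 probes were lower at 3 than at 2 days, by a mean of -0.22 for NFKBIA and -0.23 for TNFAIP3. Over all genes the median was -0.07, and 60.7% of genes were lower. With inhibitor, doxycycline and inhibitor times both differ. There 10 of 11 probes were lower on the 24 h array, by a mean of -0.09 for NFKBIA and -0.50 for TNFAIP3. The median over all genes was -0.04, and 55.8% of genes were lower. By this change NFKBIA ranked 992nd without and 1507th with inhibitor from the lowest of 3589 genes, and TNFAIP3 932nd and 164th. For NFKBIA the order of arrays from high to low was 2 days, 3 days, 3 h and 24 h of inhibitor, and it was the same for TNFAIP3. Each time is 1 array, so no step between neighbours in this order could be tested.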

How the data were processed

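Values were the log2 ratios that the authors deposited, 1 per probe for each of 4 two-colour arrays. Per the labels' protocols, total RNA was extracted with Trizol and reverse transcribed from oligo dT, with Cy5 for doxycycline-treated and Cy3 for cells without doxycycline on every array and no dye swap. The sources used here do not state the ratio's base and direction, the background correction, the normalization or why some values are missing. Base 2 was assumed, and medians near 0 show that arrays appear centred. Signal over background is unknown, and the number of arrays limits precision.

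Of 15246 probes 10169 had 1 gene, 4 several and 5073 none; 10128 matched RefSeq (GRCh38.p14) and took its current symbols. Probes with all 4 values (9788) were kept, and probes of a gene averaged to 3589 genes. limma 3.58.1 (lmFit, eBayes; R 4.3.3) fitted a mean per group over all genes, with 2 residual and 4.98 prior degrees of freedom; probes were fitted likewise. The threshold was an adjusted p under 0.05 in two-sided tests. The fit was tested on simulated data. The members and lists were chosen with earlier results of these data known. Named genes are the members, CHUK, the 5 nearest genes to each member, and per list every called gene and, where fewer than 3 were called with inhibitor, the largest means up to 3. Alternatives were median centring, equal spread, probes on at least 1 array per group, the median over probes, doxycycline day as a block, a robust prior, a threshold of 0.10 and each array left out.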

Additional observations from a re-analysis of the deposited data

How the results depend on the processing

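NFKBIA and TNFAIP3 kept their direction in all 3 comparisons under every alternative run. With inhibitor they kept their calls in every alternative that used all arrays. They lost them in the fits that left out an array of doxycycline alone. Calls from fits with 1 inhibitor array left say nothing about replication with inhibitor. With arrays scaled to equal spread 140 genes and 3 member probes were called without inhibitor, with day as a block 56 genes and 3 member probes, and at a threshold of 0.10 6 genes and 1 member probe. With inhibitor the 164 called genes became 908 with day as a block and 590 at 0.10. For the difference 4 genes were called with probes on at least 1 array per group. Leaving out single arrays gave, with inhibitor, -0.88 to -0.78 for NFKBIA, -1.13 to -0.63 for TNFAIP3, 34 genes (without either array of doxycycline alone) to 858 (without the 3 h array), and 7 (without the 24 h array) to 11 member probes. Without inhibitor it gave 0 to 231 genes and 0 to 3 member probes, the highest without either inhibitor array. For the difference it gave -0.80 to -0.305 for TNFAIP3, 0 to 119 genes and 0 to 1 member probes, the highest counts without the 3 h array and 10 genes without the 24 h array. Some uncalled values turned. At equal spread the differences of ACTB, TFRC and YWHAZ were 0.188, 0.062 and 0.086, with probe medians that of ACTB was 0.071, and with probes on at least 1 array per group the JUN mean without inhibitor was -0.023. With single arrays left out, means without inhibitor ran from -0.316 to 0.016 for NFKBIE, -0.231 to 0.128 for CXCL10 and -0.342 to 0.192 for SGK1, and the OTULIN mean with inhibitor from -0.088 to 0.828. Differences ran from -0.257 to 0.076 for NFKBIE, -0.18 to 0.735 for OTULIN, -0.205 to 0.007 for RELA, -0.144 to 0.654 for FOSB, -0.354 to 0.315 for ACTB, -0.41 to 0.062 for TFRC and -0.346 to 0.152 for YWHAZ. The causes were not tested.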
